A study of Mus musculus with 16 samples.

Results

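Fatty acids are the main fuel of the adult heart, and 38 genes for activating them, bringing them into mitochondria and oxidising them there were followed in mouse hearts with or without cardiomyocyte PPARα. The genes were taken by symbol from a list of members of this pathway, chosen with earlier results of these data known. All 38 were found among the 55278 gene symbols of the count tables. All 38 also passed the filter on low counts that left 18713 genes to be tested, so no member was lost. The lowest estimated count of any member in any library was 235.

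A fatty acid is first joined to coenzyme A by an acyl-CoA synthetase. Long acyl groups then pass the inner mitochondrial membrane as carnitine esters, made by carnitine palmitoyltransferase 1 on the outer membrane and turned back to acyl-CoA by carnitine palmitoyltransferase 2. Malonyl-CoA, made by acetyl-CoA carboxylase and removed by malonyl-CoA decarboxylase, blocks the first of these enzymes. In the matrix, each turn of β-oxidation removes an acetyl unit by dehydrogenation, hydration, a further dehydrogenation and thiolysis, and the electrons of the first step reach the respiratory chain through electron transfer flavoprotein and its dehydrogenase. PPARα is a nuclear receptor that binds fatty acids and activates many genes of this pathway in heart and liver.

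The 16 heart RNA libraries, 4 in each of 4 groups, are from male mice of the C57BL/6J strain at 8 to 12 weeks of age. Ppara-flox mice (labelled PPARa-Flox, with no deletion stated) and mice lacking PPARα in cardiomyocytes (labelled PPARa deficient) each received phosphate-buffered saline (PBS) or lipopolysaccharide (LPS, a bacterial endotoxin) at 5 mg/kg by intraperitoneal injection and were sampled at 12 h. The labels name neither the Cre line nor any mouse with Cre alone, so effects of the deletion and of Cre cannot be told apart in any comparison of genotypes. The labels give the libraries of a group as separate samples without naming the animals, and p-values measure the spread between these libraries.

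The libraries held 65569134 to 75436023 estimated counts. Low values pile up at multiples of 4, and divided by 4 the totals are 16392283 to 18859005. The RNA extraction label speaks of islets, but 5 of 5 islet markers (Ins1, Ins2, Gcg, Iapp and Sst) had 0 counts in all 16 libraries and 10 cardiomyocyte markers summed to at least 44230 CPM (counts per 1000000 counts of the library, with factors from the trimmed mean of M-values, TMM) in each. Ppara, the targeted gene, was at 37.4 to 59.3 CPM in Ppara-flox and 11.4 to 17.6 CPM in PPARα-deficient hearts under PBS. After LPS the ranges overlapped, at 7.23 to 14.7 and 4.25 to 11.9 CPM, so the level of Ppara separates the genotype labels only under PBS. Which exons were deleted is not given in the sources used here. Esr1, the estrogen receptor gene, was at most 0.516 CPM in the 8 Ppara-flox libraries, at 2859 to 3201 CPM in PPARα-deficient PBS libraries and at 28.3 to 152 CPM in PPARα-deficient LPS libraries. The PPARα-deficient groups thus differed from each other in counts under a symbol that Ppara-flox hearts hardly had. Whether these counts come from the mouse's own Esr1 gene is not given in the sources used here. In PPARα-deficient hearts LPS and this difference cannot be told apart, which holds for the interaction as well. The part of this difference in the results was not tested. The numbers in the column headers of the tables form 1 series for LPS and other series for PBS, so treatment and number series cannot be told apart. Because whole tissue was sequenced, fewer cells of a type and less RNA per cell cannot be told apart either.

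Upstream sequence is described before the levels, because PPARα with its partner RXR binds a direct repeat of AGGTCA spaced by 1 base. RefSeq promoter windows (GRCm38.p6) were matched for 33 of the 38 genes, and not for Acaa2, Acad9, Cpt1b, Crat and Decr1. In the 250 bases before the start, this repeat, AGGTCA followed by any base and AGGTCA, with up to 2 mismatches on either strand was found for 3 of the 33 genes (9.09%) and for 3.72% of 27025 genes in the table. These were Aldh9a1, Echs1 and Etfa. Stretches of 61 bases around the match, on the strand of the gene and with the match in capitals, outside annotated exons, show how far the letters depart from the repeat in a gene that was lower in PPARα-deficient hearts (Aldh9a1) and in a pair that was not called there (Echs1 and Etfa).
Aldh9a1, chr1:167349811-167349871, plus strand: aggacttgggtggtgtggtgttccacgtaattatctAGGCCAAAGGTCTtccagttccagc
Echs1, chr7:140116480-140116540, minus strand: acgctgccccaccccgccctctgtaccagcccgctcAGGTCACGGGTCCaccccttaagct
Etfa, chr9:55512296-55512356, minus strand, match on the opposite strand: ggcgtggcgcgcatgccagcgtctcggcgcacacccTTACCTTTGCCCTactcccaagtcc
Each of the 3 matches has 2 mismatches. The letters AGGTCA alone, a search added after the data were seen and one that every perfect repeat also contains, were in a window of 6 of 33 genes (18.2%; Acadm, Acadvl, Acsl6, Cpt1a, Echs1 and Pcca) and of 15.8% of all genes. The 33 genes have 37 windows, as some have more than 1 start. Acsl6 and Pcca held the letters in only 1 of their windows. For Pcca this was chr14:122484115-122484364, far before the start of its GENCODE model at 122534324, and the window at that start held 0. Of the members with this match, edgeR called Acadm and Acadvl lower in PPARα-deficient hearts. Acsl6, Cpt1a, Echs1 and Pcca were not called by genotype. A link between the match and the genotype difference was not tested. The window of Acadvl, the gene of the very long-chain acyl-CoA dehydrogenase, held 1 such match, shown here in capitals. Acadvl was picked after the data were seen, for a genotype difference among the larger ones of the 38 genes.
Acadvl, chr11:70015491-70015551, minus strand: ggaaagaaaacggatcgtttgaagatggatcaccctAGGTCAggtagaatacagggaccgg
TCAAGGTCA, the extended site bound by estrogen-related receptors, which itself contains AGGTCA, was found for 1 of 33 genes, Acsl6 (3.03%, against 0.422% of all genes). Hadha and Hadhb, the genes of the trifunctional protein's subunits, lie head to head on chromosome 5, and the GENCODE gene models leave 85 bases between them. This stretch, printed because both genes must share it, is 69.4% G or C and holds 0 copies of AGGTCA on either strand.
Hadha to Hadhb, chr5:30155163-30155247, plus strand: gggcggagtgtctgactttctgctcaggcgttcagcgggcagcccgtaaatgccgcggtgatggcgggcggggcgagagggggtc

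Before any comparison the genes differed widely in level. Levels between genes are given only as CPM per kilobase of merged exons of protein-coding transcripts (CPM per kb), and changes of 1 gene between groups in CPM. In Ppara-flox PBS hearts the means ran from 1.38 CPM per kb for Acsl6 to 476 for Acadl, with 16 genes above 100 and 8 below 10. The 7 highest genes lay within a 1.05-fold span, a set named after its levels were seen. They were Acadl at 476, Hadhb at 468, Etfb at 467, Acadm at 464, Acadvl at 456, Etfa at 454 and Acaa2 at 453 CPM per kb, and neighbours in this order did not differ beyond their spread over libraries. They are the long-, medium- and very long-chain dehydrogenases, a subunit of the trifunctional protein, both subunits of electron transfer flavoprotein and the medium-chain 3-ketoacyl-CoA thiolase. In PPARα-deficient PBS hearts the same 7 genes spread over 1.89-fold, from 204 (Acadvl) to 385 CPM per kb (Etfa). The spans were 1.3-fold in Ppara-flox LPS hearts (356 to 462 CPM per kb) and 1.86-fold in PPARα-deficient LPS hearts (194 to 362 CPM per kb). The summed share of all 38 genes was 1.22% to 1.43% of CPM in Ppara-flox PBS, 0.854% to 0.899% in PPARα-deficient PBS, 1.13% to 1.20% in Ppara-flox LPS and 0.733% to 0.770% in PPARα-deficient LPS libraries. The ranges of these shares did not overlap between any of the groups.

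**Figure D1:**
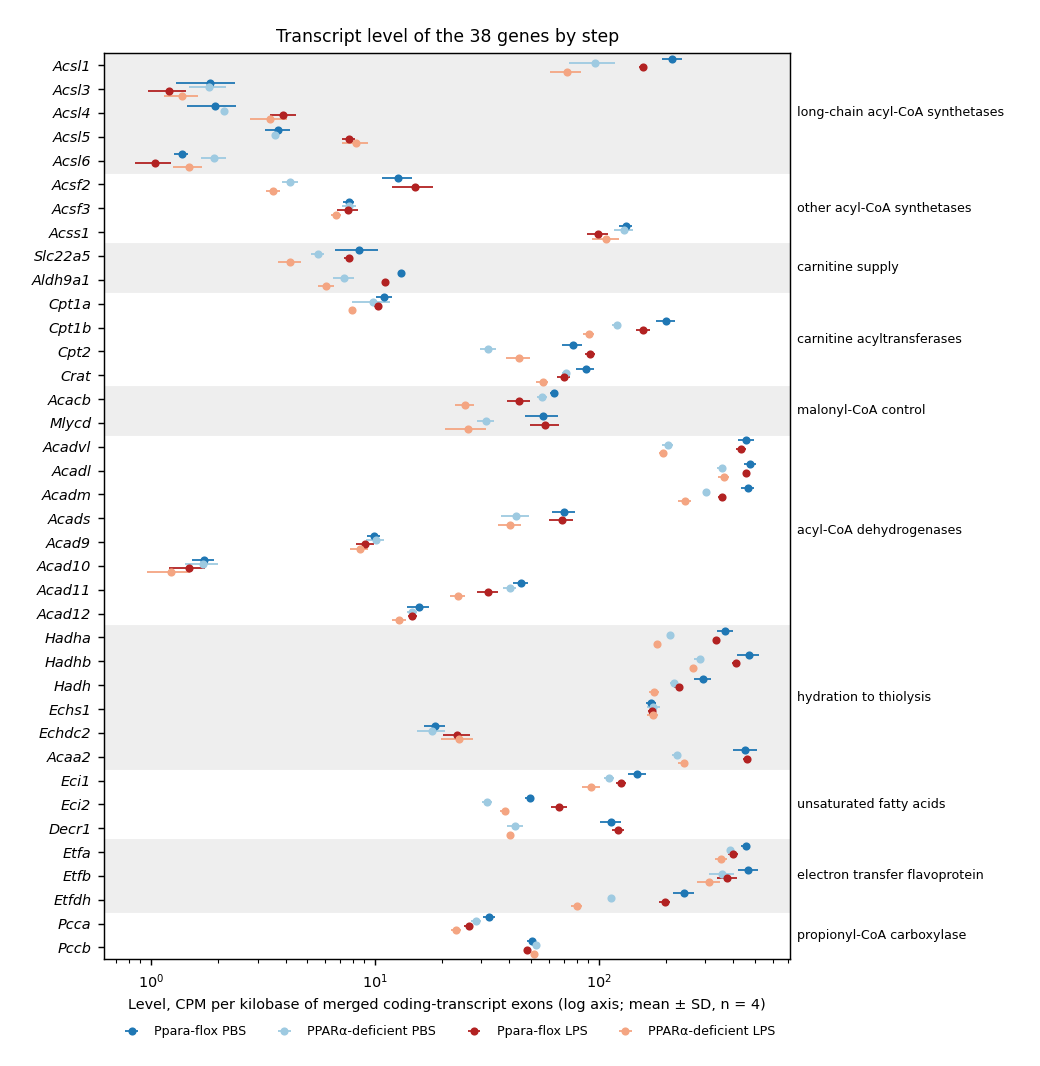
Level of each of the 38 genes in CPM per kilobase (log axis), as the mean ± SD of 4 libraries in each group, ordered by step of the pathway. In Ppara-flox PBS hearts the 7 highest genes lie between 453 and 476 CPM per kb, and in PPARα-deficient PBS hearts between 204 and 385.

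The genotypes were compared without LPS and after it. Under PBS 19 of the 38 genes were lower in PPARα-deficient hearts and 0 higher (edgeR quasi-likelihood test, Benjamini-Hochberg adjusted p under 0.05 over all 18713 genes), where 0.401% of all genes were lower and 0.0321% higher. The count of 0 higher was also 0 by DESeq2 and limma-voom, and among the 24 genes with an unadjusted p under 0.05, Acsl6 had a positive log2 fold change (0.48 ± 0.14 SE). The median log2 fold change was -0.40 over the 38 genes and 0.00 over all genes tested. After LPS 21 of 38 were lower and 0 higher, where 0.85% of all genes were lower and 0.385% higher, with a median of -0.41 (28 with an unadjusted p under 0.05). DESeq2 called 1 gene higher there, Acsl6 (0.51, adjusted p = 0.0416), and limma-voom 0. The 19 genes lower under PBS were all among the 21 lower after LPS, and the other two were Acacb and Acad11. These comparisons contrast different libraries but share an estimate of the spread from all 16 libraries, so they are not independent. With fits restricted to the 8 libraries of a comparison, Eci1 and Slc22a5 did not pass under PBS. Acad11, Acadl, Eci1 and Hadh did not pass after LPS in those fits, so Acadl and Hadh were then lower under PBS only. Cardiomyocyte markers, 10 in number, summed to 79030 to 85150 CPM in Ppara-flox and 73500 to 82390 CPM in PPARα-deficient PBS hearts, and 0 of 10 were called there. No tested gene of the other marker lists (endothelial, fibroblast, smooth muscle and pericyte, macrophage, neutrophil, adipocyte, skeletal muscle, erythroid and liver) was called by genotype under PBS. Only 2 of 8 adipocyte, 3 of 7 skeletal muscle and 2 of 5 liver markers were tested. Under PBS the 8 adipocyte markers summed to 17.4 to 24.4 CPM in Ppara-flox and 14.5 to 17.2 CPM in PPARα-deficient hearts, without overlap. After LPS 1 of 10 cardiomyocyte markers was higher and 1 of 2 tested adipocyte markers lower in PPARα-deficient hearts. The 8 endothelial markers summed to 852 to 1004 CPM in Ppara-flox LPS and 787 to 839 CPM in PPARα-deficient LPS hearts, without overlap. Of these, 0 of 8 were called (median log2 fold change -0.18), and the part of endothelial cells was not tested. The 8 adipocyte markers summed to 21.3 to 36.8 CPM in Ppara-flox LPS and 15.1 to 19.6 CPM in PPARα-deficient LPS hearts, with Adipoq at 0 in both, and their part was not tested.

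The effect of LPS was asked within each genotype. LPS lowered 16 of the 38 genes and raised 4 in Ppara-flox hearts, where 19.1% of all genes fell and 20.2% rose. It lowered 16 and raised 5 in PPARα-deficient hearts, where 18.3% fell and 19.4% rose. The medians were -0.14 and -0.25, against 0.01 over all genes in each. No change of a member with LPS was larger than that of Acsl5 in PPARα-deficient hearts, 1.20 on the log2 scale. Without Ppara-flox PBS replicate 4 the genes lowered in Ppara-flox hearts numbered 10, without PPARα-deficient PBS replicate 4 those lowered in PPARα-deficient hearts numbered 11, while leaving out both replicate 4 of Ppara-flox LPS and replicate 3 of PPARα-deficient LPS, chosen after seeing the data, gave 12 and 11. Over all genes these fits lowered 3318 of 19196, 3128 of 19203, and 3387 and 3264 of 19065. Cardiomyocyte markers were lower in the LPS libraries, with 9 of 10 called in Ppara-flox and 8 of 10 in PPARα-deficient hearts (sums of 44230 to 51900 and 47970 to 52960 CPM, none of the 10 at 0), and 5 of 6 tested neutrophil markers were higher in each genotype (20.1 to 45.8 and 25.9 to 29.6 CPM, against at most 8.96 CPM under PBS). Macrophage markers fell for 4 of 8 and rose for 1 in each genotype, fibroblast markers fell for 5 of 8 and rose for 1, smooth muscle and pericyte markers fell for 6 and 5 of 7, endothelial ones for 3 of 8, and erythroid ones for 0 and 2 of 5. The part of these cells in the LPS results was not tested.

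The interaction asked whether LPS acted differently between genotypes. It called 0 of 38 genes by edgeR (0 of all genes, 0%), with 3 members at an unadjusted p under 0.05 (Acsf2, Acacb and Acad11). DESeq2 called 1 member, Acacb, and limma-voom 0. The difference in LPS effect ranged from -0.62 (Acacb) to 0.20 (Acsl3) over the 38 genes, with a median of -0.02.

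**Figure D2:**
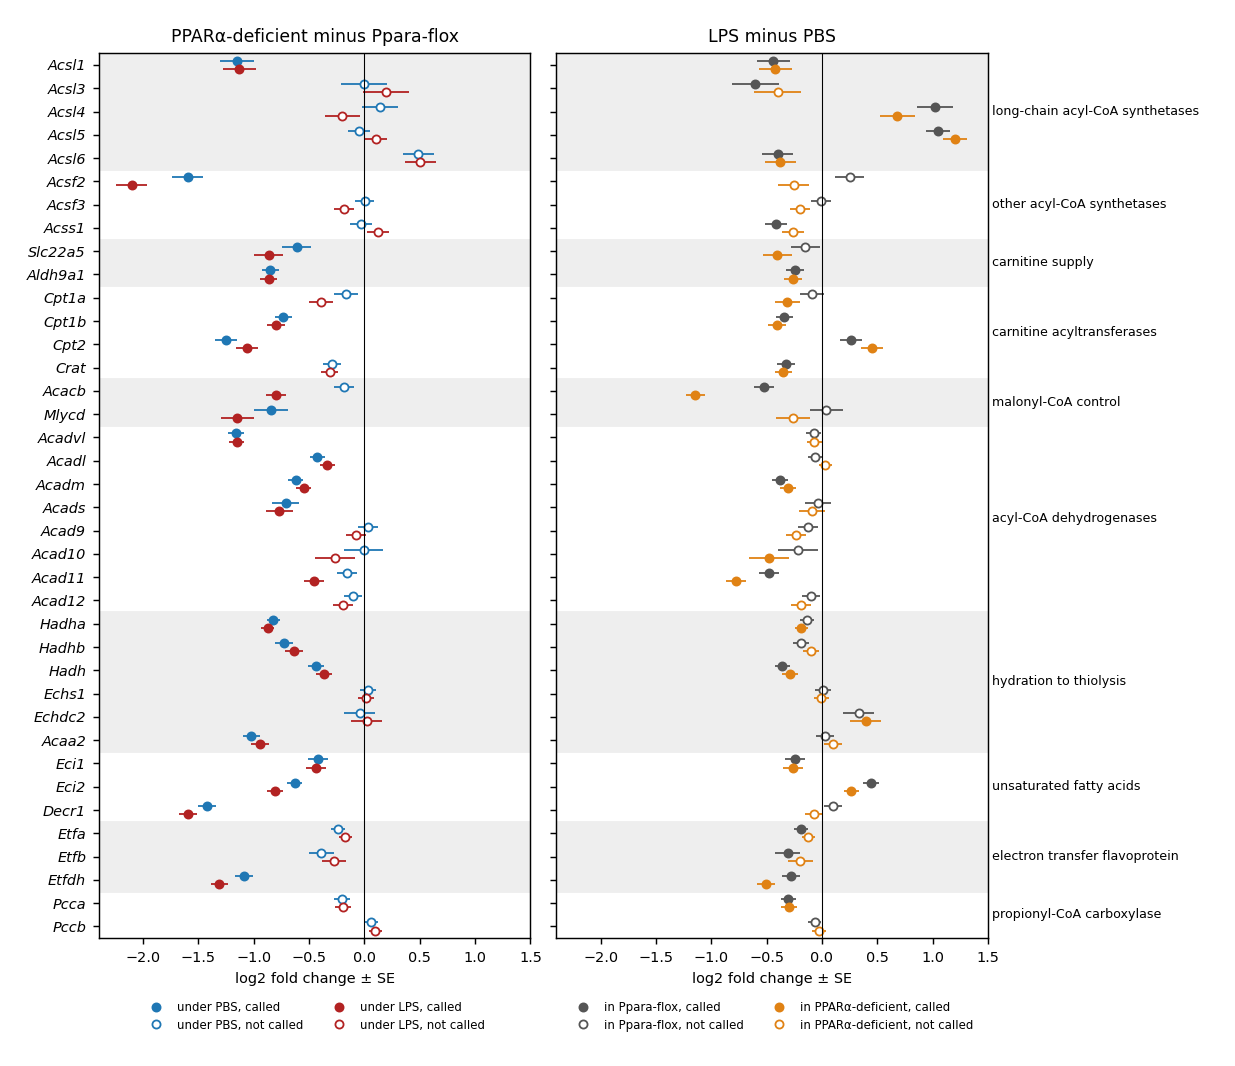
Log2 fold change ± SE of each of the 38 genes from edgeR, PPARα-deficient against Ppara-flox (left) and LPS against PBS (right), with filled points where the adjusted p was under 0.05. On the left the filled points, 19 under PBS and 21 under LPS, all lie below 0, and on the right they lie on both sides of it.

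Of the 5 long-chain acyl-CoA synthetase genes, Acsl1 carried most of the transcript in every library, and its isoforms moved in different directions. Acsl1 (chr8:46471037-46536051, plus strand) was at 846, 885, 929 and 1059 CPM in Ppara-flox PBS hearts and 282, 418, 510 and 464 CPM in PPARα-deficient PBS hearts. After LPS it was at 679, 678, 723 and 663 CPM in Ppara-flox and 335, 334, 239 and 343 CPM in PPARα-deficient hearts. The genotype groups did not overlap under either treatment. Acsl1 was 2.22-fold lower in PPARα-deficient hearts under PBS (-1.15 ± 0.15 SE, edgeR adjusted p = 0.000476) and 2.19-fold lower after LPS (-1.13 ± 0.15 SE, adjusted p = 0.000384). LPS lowered it by less, by 0.44 ± 0.15 SE on the log2 scale in Ppara-flox (adjusted p = 0.0267) and by 0.42 ± 0.15 SE in PPARα-deficient hearts (adjusted p = 0.0344). The first of these calls was lost without Ppara-flox PBS replicate 4 or Ppara-flox LPS replicate 1, 2 or 4 (adjusted p 0.0548 to 0.0832), and the second without PPARα-deficient PBS replicate 2, 3 or 4 or PPARα-deficient LPS replicate 3 (0.0607 to 0.129).

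Acsl5, an isoform found on mitochondria and endoplasmic reticulum, and Acsl4, which prefers arachidonate, rose with LPS in both genotypes. Acsl5 was at 20.6, 18.6, 15.6 and 16.4 CPM in Ppara-flox PBS and at 38.3, 37.9, 33.1 and 37.9 CPM in Ppara-flox LPS hearts (1.05 ± 0.11 SE, edgeR adjusted p = 8.32e-07). In PPARα-deficient hearts it was at 16.9 to 17.5 CPM under PBS and 33.0 to 45.8 CPM after LPS (1.20 ± 0.11 SE, adjusted p = 2.25e-07). All LPS libraries were above all PBS libraries. The rise of Acsl4 was 1.02 ± 0.16 SE in Ppara-flox (10.3 to 20.9 CPM) and 0.68 ± 0.16 SE in PPARα-deficient hearts (11.3 to 18.2 CPM). Acsl5 and Acsl4 did not pass between genotypes (log2 fold changes from -0.20 to 0.14).

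Acsl3 and Acsl6 had group means of 4.82 to 14.9 CPM. Acsl6 fell with LPS in both genotypes (-0.40 ± 0.14 SE and -0.38 ± 0.14 SE, edgeR adjusted p = 0.0379 and 0.0486). Those calls were lost on leaving out 6 and 12 of the 16 libraries in turn. Acsl3 passed in Ppara-flox hearts after LPS (-0.60 ± 0.21 SE, adjusted p = 0.0345; up to 0.15 without Ppara-flox PBS replicate 1 or 4 or Ppara-flox LPS replicate 1 or 2). Per kilobase, Acsl1 made up 94.8% to 96.6% of the 5 genes in Ppara-flox PBS, 87.0% to 92.3% in PPARα-deficient PBS, 91.0% to 93.0% in Ppara-flox LPS and 77.4% to 85.5% in PPARα-deficient LPS libraries. The lowest share and the lowest Acsl1 value after LPS came from the same library, PPARα-deficient LPS replicate 3.

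Among the other synthetases Acsf2, a mitochondrial member of the acyl-CoA synthetase family, differed most between genotypes of all 38 genes. It was at 37.2, 40.8, 34.0 and 48.5 CPM in Ppara-flox PBS and 13.7, 14.6, 12.2 and 12.6 CPM in PPARα-deficient PBS hearts. After LPS the values were 59.5, 52.1, 38.5 and 40.8 CPM in Ppara-flox and 10.2 to 12.0 CPM in the 4 PPARα-deficient hearts. The genotypes stood far apart in all 8 libraries of each treatment. Acsf2 (chr11:94557102-94601871, minus strand) was 3.02-fold lower under PBS (-1.60 ± 0.14 SE, edgeR adjusted p = 4.83e-06) and 4.29-fold lower after LPS (-2.10 ± 0.14 SE, adjusted p = 2.77e-07). LPS changed it in neither genotype by the test (0.25 ± 0.13 SE and -0.26 ± 0.14 SE), and the difference of these effects had adjusted p = 0.799 (-0.51 ± 0.19 SE). Acss1, which activates acetate in the matrix, fell with LPS in Ppara-flox hearts from 480.0 to 360.5 CPM (-0.41 ± 0.10 SE, adjusted p = 0.00454) and was at -0.26 ± 0.10 SE in PPARα-deficient hearts (adjusted p = 0.057; 0.0459 by DESeq2 and 0.0423 by limma-voom). Its genotype differences were -0.03 ± 0.10 SE and 0.12 ± 0.10 SE. Acsf3, the malonyl-CoA synthetase of mitochondria, passed in none of the comparisons (-0.20 to 0.00; with upper-quartile factors adjusted p = 0.0485 for LPS in PPARα-deficient hearts).

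Both genes of carnitine supply were lower in PPARα-deficient hearts. Aldh9a1, an enzyme of carnitine synthesis, was at 36.4, 37.9, 36.6 and 38.4 CPM in Ppara-flox PBS hearts and 20.1, 23.9, 18.5 and 20.3 CPM in PPARα-deficient PBS hearts (-0.85 ± 0.08 SE, edgeR adjusted p = 2.58e-05). With LPS the levels were 30.7 to 32.8 and 16.1 to 19.2 CPM (-0.87 ± 0.08 SE, adjusted p = 1.47e-05). Within each treatment the genotypes did not overlap. LPS lowered Aldh9a1 by 0.25 ± 0.08 SE and 0.26 ± 0.08 SE on the log2 scale, calls that were lost without Ppara-flox PBS replicate 2 or 4 or LPS replicate 1 or 4 (adjusted p 0.0553 to 0.0658) and without PPARα-deficient PBS replicate 2 or LPS replicate 2 or 4 (0.057 to 0.0895). Slc22a5, the carnitine transporter of the cell membrane, was at 21.2, 24.2, 24.5 and 34.4 CPM in Ppara-flox PBS and 17.6, 15.6, 18.1 and 16.9 CPM in PPARα-deficient PBS hearts. The highest value came from Ppara-flox PBS replicate 4. The genotype difference under PBS (-0.61 ± 0.13 SE, adjusted p = 0.0491) failed the test when any of 14 of the 16 libraries was left out (adjusted p 0.0625 to 0.182), and passed without Ppara-flox PBS replicate 1 or PPARα-deficient LPS replicate 3. After LPS it was -0.87 ± 0.13 SE (adjusted p = 0.0013), and that call held with each library left out. LPS lowered Slc22a5 in PPARα-deficient hearts (-0.40 ± 0.13 SE, adjusted p = 0.0205), a call lost on leaving out replicate 3 of the PPARα-deficient PBS or LPS group (0.0549 and 0.0706).

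The carnitine acyltransferases differed from each other. Cpt1b, the muscle form of carnitine palmitoyltransferase 1 (chr15:89416405-89425863, minus strand), was at 573, 719, 697 and 686 CPM in Ppara-flox PBS and 374, 412, 414 and 410 CPM in PPARα-deficient PBS hearts. In LPS hearts it stood at 507, 514, 587 and 507 CPM in Ppara-flox and 287, 292, 310 and 324 CPM in PPARα-deficient hearts. Neither pair of genotype groups overlapped. Cpt1b was 1.66-fold lower in PPARα-deficient hearts under PBS (-0.73 ± 0.08 SE, edgeR adjusted p = 6.87e-05) and 1.74-fold lower after LPS (-0.80 ± 0.08 SE, adjusted p = 1.82e-05). LPS lowered it in both genotypes (-0.34 ± 0.08 SE and -0.41 ± 0.08 SE). The gene model Gm44502 lies on the same strand and shares 81.4% of the exon bases of Cpt1b, so reads of the pair could be split in the counting. Mean levels of Gm44502 in Ppara-flox and PPARα-deficient hearts were 20.6 and 6.10 CPM under PBS and 18.1 and 13.2 CPM after LPS.

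Cpt1a, the liver form, was at 49.4, 59.7, 57.1 and 55.6 CPM in Ppara-flox PBS and 40.8, 43.2, 51.8 and 61.5 CPM in PPARα-deficient PBS hearts. These groups overlapped, and the difference did not pass (-0.17 ± 0.11 SE, edgeR adjusted p = 1.0). After LPS the values were 48.9 to 53.6 and 38.2 to 40.6 CPM, without overlap (-0.39 ± 0.11 SE, adjusted p = 0.112; 0.0431 by DESeq2 and 0.0331 without PPARα-deficient PBS replicate 4, the library with 61.5 CPM). The fall with LPS in PPARα-deficient hearts (-0.31 ± 0.11 SE, adjusted p = 0.0288) was lost without PPARα-deficient PBS replicate 3 or 4 or LPS replicate 1, 3 or 4 (0.0508 to 0.125). Per kilobase Cpt1a stood at 5.40% to 5.73% of Cpt1b in Ppara-flox PBS, 6.98% to 9.99% in PPARα-deficient PBS, 5.98% to 7.03% in Ppara-flox LPS and 7.83% to 9.27% in PPARα-deficient LPS libraries. The liver form thus remained a small fraction of the muscle form in every library. This and the other ratios are 7 in all, described without a test.

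Cpt2, which re-forms acyl-CoA in the matrix (chr4:107903981-107923610, minus strand), was lower in PPARα-deficient hearts and higher after LPS. It was at 155, 188, 186 and 199 CPM in Ppara-flox PBS and 67.6, 82.4, 78.0 and 77.9 CPM in PPARα-deficient PBS hearts (2.38-fold lower, -1.25 ± 0.10 SE, edgeR adjusted p = 1.74e-06). LPS hearts had 216, 229, 224 and 204 CPM in Ppara-flox and 102, 91.3, 104 and 122 CPM in those lacking PPARα (-1.06 ± 0.10 SE, adjusted p = 8.18e-06). Every LPS library was above every PBS library of its genotype. The rise with LPS was 0.45 ± 0.10 SE in PPARα-deficient hearts (adjusted p = 0.00151). In Ppara-flox hearts it was 0.26 ± 0.10 SE (adjusted p = 0.0404), a call lost with upper-quartile factors (0.111) and without Ppara-flox PBS replicate 1, 2 or 3 or LPS replicate 1, 2 or 3 (0.0547 to 0.135). Crat, carnitine acetyltransferase, which handles short acyl groups, fell with LPS in both genotypes (-0.33 ± 0.08 SE and -0.35 ± 0.08 SE, adjusted p = 0.00289 and 0.00191). Its genotype differences of -0.30 ± 0.08 SE under PBS and -0.32 ± 0.08 SE after LPS did not pass by edgeR (0.191 and 0.0625; the latter 0.0388 without Ppara-flox PBS replicate 1) and passed by DESeq2 (0.0375 and 0.0115).

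The malonyl-CoA pair behaved differently under the conditions. Acacb, the acetyl-CoA carboxylase form associated with mitochondria (chr5:114146535-114250761, plus strand), was at 553, 605, 561 and 586 CPM in Ppara-flox PBS and 518, 479, 494 and 539 CPM in PPARα-deficient PBS hearts. After LPS it was at 406, 408, 450 and 339 CPM in Ppara-flox and 220, 204, 250 and 245 CPM in PPARα-deficient hearts. The genotypes did not overlap under either treatment, LPS libraries were lower than PBS libraries throughout, and the lowest values were those of PPARα-deficient LPS hearts. Acacb fell with LPS in both genotypes (-0.52 ± 0.09 SE, edgeR adjusted p = 0.000149, and -1.14 ± 0.09 SE, adjusted p = 5.69e-08). The genotype difference was -0.18 ± 0.09 SE under PBS (adjusted p = 0.894) and -0.80 ± 0.09 SE after LPS (adjusted p = 4.81e-05). The difference of the LPS effects, -0.62 ± 0.12 SE, had the largest size of the 38 genes and did not pass in the edgeR fit (adjusted p = 0.174). It passed by DESeq2 (-0.61, adjusted p = 0.00506) and on leaving out both replicate 4 of Ppara-flox LPS and replicate 3 of PPARα-deficient LPS (-0.73, adjusted p = 0.0496), and not by limma-voom (-0.62, adjusted p = 0.155).

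Mlycd, malonyl-CoA decarboxylase (chr8:119394878-119411102, plus strand), was at 93.6, 115, 136 and 135 CPM in Ppara-flox PBS and 60.9, 64.6, 67.2 and 74.3 CPM in PPARα-deficient PBS hearts (-0.84 ± 0.15 SE, edgeR adjusted p = 0.0112). Without Ppara-flox PBS replicate 3 or 4 or PPARα-deficient PBS replicate 1 the adjusted p was 0.0501 to 0.0591. With LPS the levels were 120, 136, 138 and 98.9 CPM and 67.2, 44.8, 46.6 and 63.9 CPM (-1.15 ± 0.15 SE, adjusted p = 0.000384). The genotypes did not overlap, and LPS did not change Mlycd by the test (0.04 ± 0.15 SE and -0.26 ± 0.15 SE). The log2 ratio of Acacb to Mlycd per kilobase, a measure added after the data were seen, was -0.05 to 0.47 in Ppara-flox PBS, 0.77 to 1.00 in PPARα-deficient PBS, -0.50 to -0.32 in Ppara-flox LPS and -0.38 to 0.33 in PPARα-deficient LPS libraries. It was highest in PPARα-deficient PBS hearts, in which Mlycd was lower than in Ppara-flox hearts while Acacb had not passed.

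The 4 acyl-CoA dehydrogenases that divide fatty acids by chain length were all lower in PPARα-deficient hearts, and the size did not follow chain length. Acadvl, for very long chains (chr11:70010183-70015411, minus strand), was at between 869 and 1048 CPM in the 4 Ppara-flox PBS and 425, 420, 450 and 476 CPM in PPARα-deficient PBS hearts. In LPS hearts it stood at 977, 982, 925 and 872 CPM and 444, 419, 404 and 420 CPM. The genotypes were far apart, and the treatments overlapped within each genotype. Acadvl was 2.24-fold lower under PBS (-1.16 ± 0.07 SE, edgeR adjusted p = 1.62e-07) and 2.23-fold lower after LPS (-1.15 ± 0.07 SE, adjusted p = 1.76e-07), and its LPS effects were -0.08 ± 0.07 SE and -0.07 ± 0.07 SE. Dvl2 overlaps 42.9% of the exon bases of Acadvl on the opposite strand and was at 9.68 to 16.4 CPM on average in the groups.

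Acadl, for long chains (chr1:66830839-66863277, minus strand), was at 895, 875, 889 and 993 CPM in Ppara-flox PBS and 632, 676, 708 and 702 CPM in PPARα-deficient PBS hearts (-0.43 ± 0.07 SE, edgeR adjusted p = 0.00264). After LPS the ranges were 858 to 918 and 645 to 735 CPM (-0.34 ± 0.07 SE, adjusted p = 0.0126; 0.052 and 0.0553 on leaving out replicate 2 of Ppara-flox LPS or replicate 4 of PPARα-deficient LPS). LPS effects were -0.06 ± 0.06 SE and 0.03 ± 0.06 SE. Acadl was thus the least lowered of the 4, and its groups still did not overlap. Acadvl and Acadl stood at like levels per kilobase in Ppara-flox hearts (log2 ratio -0.22 to 0.08 under PBS and -0.16 to 0.01 after LPS), and Acadvl was below Acadl in every PPARα-deficient library (-0.87 to -0.74 and -1.04 to -0.80). This ratio too was chosen after the data were seen.

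Acadm, for medium chains (chr3:153922357-153944632, minus strand), was lower with PPARα deficiency and after LPS. It was at 965, 924, 1016 and 1084 CPM in Ppara-flox PBS, 622, 651, 646 and 672 CPM in PPARα-deficient PBS, 780, 777, 725 and 781 CPM in Ppara-flox LPS and 496, 510, 576 and 510 CPM in PPARα-deficient LPS hearts. No 2 of these groups overlapped. The genotype difference was -0.62 ± 0.07 SE under PBS (edgeR adjusted p = 6.72e-05) and -0.55 ± 0.07 SE after LPS (0.000166), and LPS lowered Acadm by 0.38 ± 0.07 SE and 0.31 ± 0.07 SE on the log2 scale. Acads, for short chains (chr5:115110299-115119346, minus strand), was at 111, 137, 148 and 129 CPM in Ppara-flox PBS and 72.3, 74.6, 96.8 and 76.8 CPM in PPARα-deficient PBS hearts (-0.71 ± 0.12 SE, adjusted p = 0.0065). LPS hearts had 111 to 147 and 66.3 to 85.4 CPM (-0.77 ± 0.12 SE, adjusted p = 0.00208), and LPS effects were -0.03 ± 0.12 SE and -0.09 ± 0.12 SE. In Ppara-flox PBS hearts Acads, at 70.2 CPM per kb, was well below the other three at 456 to 476.

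Of the 4 remaining genes named as dehydrogenases, edgeR called only Acad11 by genotype, and only after LPS. Acad9, whose protein also assembles respiratory complex I, was at 33.7 to 39.8 CPM on average and was not called in any comparison (-0.24 to 0.03; with LPS in PPARα-deficient hearts adjusted p = 0.0583, and 0.0238 to 0.0492 without any of 4 libraries). Its fall there passed by DESeq2 (adjusted p = 0.0432). In edgeR it passed with counts divided by 4 (0.0418), a stricter filter on low counts (0.0411) and upper-quartile factors (0.0304). Acad12 was not called either (-0.20 to -0.10; with LPS in PPARα-deficient hearts adjusted p = 0.0896, and 0.0443 with upper-quartile factors). LPS lowered Acad11 from a mean of 178.5 to 128 CPM in Ppara-flox (-0.48 ± 0.09 SE, edgeR adjusted p = 0.00046) and, in hearts lacking PPARα, from 159.8 to 93.4 CPM (-0.77 ± 0.09 SE, adjusted p = 4.71e-06). It was lower in PPARα-deficient hearts after LPS (-0.45 ± 0.09 SE, adjusted p = 0.0157), a call lost without Ppara-flox LPS replicate 1 or 3 or PPARα-deficient LPS replicate 2 or 3 (0.051 to 0.0636). Acad10 was at 4.74 to 6.65 CPM on average and passed in 1 of the comparisons, LPS in PPARα-deficient hearts (-0.48 ± 0.18 SE, adjusted p = 0.0444). That call was lost on leaving out any of 8 libraries (0.0522 to 0.141).

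In the later steps of the cycle 4 of 6 genes were lower in PPARα-deficient hearts under both treatments. Hadha, the subunit of the trifunctional protein with hydratase and long-chain hydroxyacyl-CoA dehydrogenase activity (chr5:30118304-30155162, minus strand), was at 1325, 1481, 1499 and 1620 CPM in Ppara-flox PBS and 817, 849, 814 and 869 CPM in PPARα-deficient PBS hearts (1.77-fold lower, -0.82 ± 0.06 SE, edgeR adjusted p = 1.74e-06). After LPS it was at 1406, 1354, 1319 and 1315 CPM and 751, 719, 762 and 712 CPM (-0.87 ± 0.06 SE, adjusted p = 6.48e-07). Hadhb, the thiolase subunit (chr5:30155248-30184593, plus strand), was at 878, 903, 989 and 1125 CPM in Ppara-flox PBS and 567, 558, 604 and 623 CPM in PPARα-deficient PBS hearts (-0.73 ± 0.08 SE, adjusted p = 3.66e-05), and -0.64 ± 0.08 SE after LPS (adjusted p = 0.000112). The divergent neighbours, whose shared upstream stretch is printed above, were both without overlap between genotypes. Their log2 ratio per kilobase was -0.42 to -0.24 in Ppara-flox PBS, -0.52 to -0.34 in PPARα-deficient PBS, -0.33 to -0.26 in Ppara-flox LPS and -0.58 to -0.46 in PPARα-deficient LPS libraries.

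The LPS effects on the pair were small. Hadha passed in PPARα-deficient hearts (-0.19 ± 0.06 SE, edgeR adjusted p = 0.0302; 0.0681 to 0.0819 without PPARα-deficient PBS replicate 2 or 4 or LPS replicate 2 or 4). In Ppara-flox hearts it did not (-0.14 ± 0.06 SE, adjusted p = 0.107; 0.029 without Ppara-flox PBS replicate 1). Hadhb in Ppara-flox hearts was just short of the threshold (-0.19 ± 0.07 SE, adjusted p = 0.0532; on leaving out Ppara-flox PBS replicate 1 or 2, 0.024 or 0.0364). It passed with DESeq2 (adjusted p = 0.0285) and limma-voom (0.0461). In edgeR it also passed with upper-quartile factors (0.0125) and counts divided by 4 (0.0368), among other alternatives.

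Acaa2, the thiolase that acts on medium chains, was at 560, 731, 718 and 738 CPM in Ppara-flox PBS and 328, 325, 341 and 360 CPM in PPARα-deficient PBS hearts (2.03-fold lower, -1.02 ± 0.08 SE, edgeR adjusted p = 2.43e-06). With LPS the levels were 699.7, 737, 685 and 677 CPM and 391, 351, 359.6 and 351 CPM (-0.95 ± 0.08 SE, adjusted p = 5.1e-06), with LPS effects of 0.03 ± 0.08 SE and 0.10 ± 0.08 SE. Genotype separated the libraries and LPS did not. Hadh, the dehydrogenase of medium- and short-chain hydroxyacyl-CoA, was at 455, 545, 540 and 555 CPM in Ppara-flox PBS, 371 to 404 CPM in PPARα-deficient PBS, 381 to 427 CPM in Ppara-flox LPS and 294 to 335 CPM in PPARα-deficient LPS hearts. It was lower by genotype (-0.44 ± 0.07 SE, adjusted p = 0.00606, and -0.37 ± 0.07 SE, adjusted p = 0.0153) and by LPS (-0.36 ± 0.07 SE and -0.29 ± 0.07 SE). The genotype call after LPS was lost without Ppara-flox LPS replicate 1 or 2 or PPARα-deficient LPS replicate 4 (0.0524 to 0.0627).

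Echs1, the short-chain enoyl-CoA hydratase (chr7:140105710-140116476, minus strand), was called in none of the comparisons. It was at 264, 268, 285 and 255 CPM in Ppara-flox PBS, 296, 270, 276 and 252 CPM in PPARα-deficient PBS, 270, 286, 259 and 263 CPM in Ppara-flox LPS and 283, 279, 279 and 250 CPM in PPARα-deficient LPS hearts. All 4 groups overlapped, and the 4 log2 fold changes lay within -0.00 to 0.03, each with an SE of 0.07. Echdc2, a hydratase-like gene, was at 19.9 to 28.1 CPM under PBS and 24.7 to 37.4 CPM after LPS. It passed with LPS in PPARα-deficient hearts (0.40 ± 0.14 SE, edgeR adjusted p = 0.0288; up to 0.112 without any of 5 libraries, PPARα-deficient PBS replicates 2, 3 and 4 and LPS replicates 1 and 2), and not in Ppara-flox hearts (0.33 ± 0.14 SE, adjusted p = 0.0623; 0.0244 to 0.0492 without Ppara-flox LPS replicate 4 or PPARα-deficient LPS replicate 1 or 3).

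**Figure D3:**
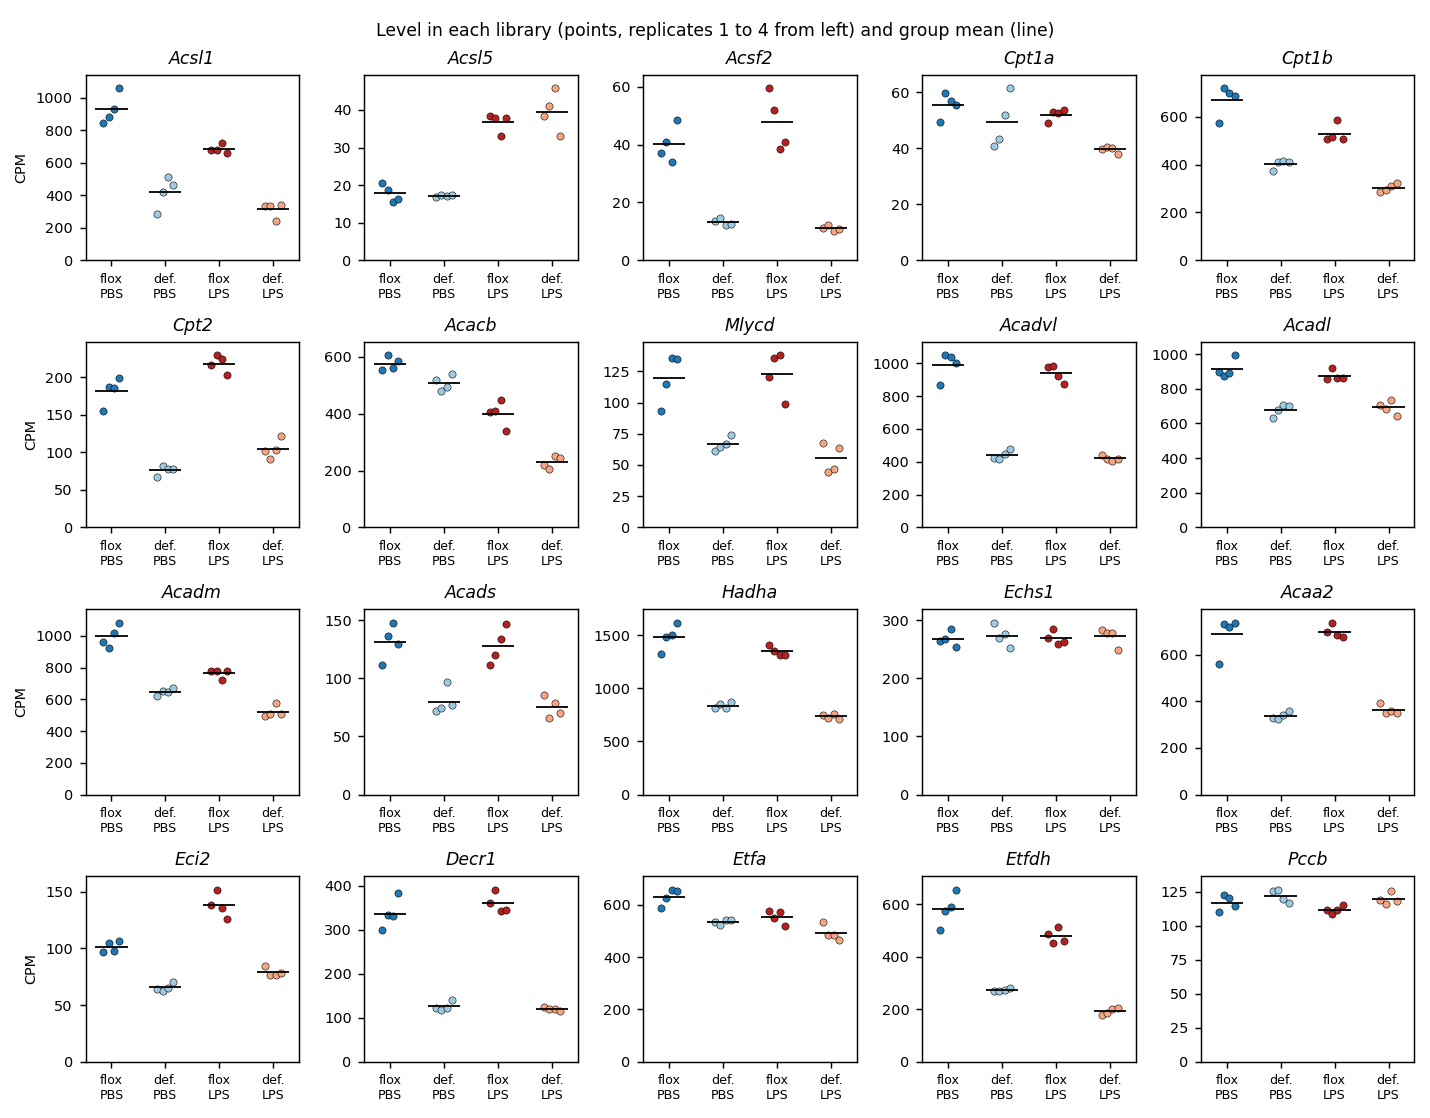
CPM of 20 of the genes in each of the 16 libraries (points, 4 per group, replicates 1 to 4 from left) with the group mean (line), each panel starting at 0. In the panels of Acadvl, Acaa2, Decr1 and Etfdh the Ppara-flox libraries all lie above the PPARα-deficient ones, while in the panel of Echs1 the groups lie over each other.

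All 3 auxiliary genes for unsaturated fatty acids were lower in PPARα-deficient hearts. Decr1, the 2,4-dienoyl-CoA reductase (chr4:15917240-15945507, minus strand), was at 299, 333, 331 and 385 CPM in Ppara-flox PBS and 122, 119, 122 and 141 CPM in PPARα-deficient PBS hearts. In LPS hearts it stood at 362, 391, 343 and 346 CPM and 124, 119.9, 119 and 115 CPM. Genotypes were far apart, and the 3.02-fold difference after LPS (-1.59 ± 0.08 SE, edgeR adjusted p = 2.86e-08) was the smallest adjusted p among the 38 genes in that comparison. LPS effects were 0.10 ± 0.08 SE and -0.08 ± 0.08 SE. Eci2, an enoyl-CoA isomerase also found in peroxisomes, was at 96.9, 105, 97.7 and 107 CPM in Ppara-flox PBS, 64.5, 62.6, 65.1 and 70.2 CPM in PPARα-deficient PBS, 139, 152, 136 and 126 CPM in Ppara-flox LPS and 84.1, 76.1, 76.5 and 78.6 CPM in PPARα-deficient LPS hearts. It was lower by genotype (-0.63 ± 0.07 SE, adjusted p = 0.000131, and -0.81 ± 0.07 SE, adjusted p = 6.76e-06) and rose with LPS (0.44 ± 0.07 SE, adjusted p = 0.000129, and 0.27 ± 0.07 SE, adjusted p = 0.00807). With Cpt2 it was 1 of the 2 genes called lower by genotype under both treatments and higher with LPS in both genotypes.

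Eci1, the mitochondrial enoyl-CoA isomerase, was at 183, 227, 213 and 217 CPM in Ppara-flox PBS and 166, 156, 146 and 161 CPM in PPARα-deficient PBS hearts. Its difference of -0.42 ± 0.09 SE (edgeR adjusted p = 0.0376) was lost without any of 10 libraries (0.0504 to 0.15), and with the PBS header number series as a term (0.052). After LPS the difference was -0.44 ± 0.09 SE (adjusted p = 0.0137; 0.054 without Ppara-flox LPS replicate 2). The falls with LPS (-0.25 ± 0.09 SE and -0.26 ± 0.09 SE) were lost without any of 5 and 3 libraries (adjusted p up to 0.0927 and 0.0855). Eci1 was the 1 member whose calls in all 4 comparisons were each lost on leaving out some library.

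Of the electron transfer genes, edgeR called the dehydrogenase lower by genotype and did not call the flavoprotein subunits. Etfdh, which passes electrons from the flavoprotein to ubiquinone (chr3:79603788-79629500, minus strand), was at 503, 575, 590.3 and 656 CPM in Ppara-flox PBS and 271, 271, 273 and 280 CPM in PPARα-deficient PBS hearts (2.12-fold lower, -1.09 ± 0.08 SE, edgeR adjusted p = 8.07e-07). LPS hearts had 489, 454, 513 and 459 CPM and 179, 187, 201 and 204 CPM (2.48-fold lower, -1.31 ± 0.08 SE, adjusted p = 1.26e-07). No library crossed between genotypes. LPS lowered Etfdh in Ppara-flox (-0.28 ± 0.08 SE, adjusted p = 0.00876) and PPARα-deficient hearts (-0.50 ± 0.08 SE, adjusted p = 7.94e-05).

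Etfa was at 589, 628, 658 and 653 CPM in Ppara-flox PBS and 535, 522, 544 and 543 CPM in PPARα-deficient PBS hearts, without overlap, and its difference of -0.24 ± 0.06 SE did not pass by edgeR (adjusted p = 0.203) but did by DESeq2 (0.0233). Etfb was at 373, 465, 438 and 391 CPM and 345, 348, 263 and 317 CPM, also without overlap (-0.39 ± 0.11 SE, edgeR adjusted p = 0.282). After LPS the genotype differences were -0.17 ± 0.06 SE and -0.27 ± 0.11 SE. Neither passed, and the genotypes overlapped in both genes. LPS lowered both in Ppara-flox hearts (-0.19 ± 0.06 SE, adjusted p = 0.026, and -0.31 ± 0.11 SE, adjusted p = 0.0336). The Etfa call was lost without Ppara-flox PBS replicate 3 or 4 or LPS replicate 2 or 4, and the Etfb call without Ppara-flox PBS replicate 2 or 3 or LPS replicate 3 or 4 (adjusted p 0.0501 to 0.105). Gm45233 shares 53.0% of the exon bases of Etfb on its strand and was not analysed here.

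The propionyl-CoA carboxylase subunits, which handle the last carbons of odd-chain fatty acids, were not called between genotypes. Pcca was at 77.8 to 89.3 CPM in Ppara-flox PBS, 68.2 to 76.5 CPM in PPARα-deficient PBS, 65.5 to 72.5 CPM in Ppara-flox LPS and 56.1 to 62.3 CPM in PPARα-deficient LPS hearts. It fell with LPS in both genotypes (-0.30 ± 0.07 SE, edgeR adjusted p = 0.00261, and -0.30 ± 0.07 SE, adjusted p = 0.00324), while the genotype differences were -0.20 ± 0.07 SE and -0.19 ± 0.07 SE (adjusted p = 0.568 and 0.331). Pccb was at 110 to 122, 116 to 126, 108 to 115 and 116 to 126 CPM in the same order of groups and was called in none of the comparisons (-0.07 to 0.10, SE 0.06), although the LPS groups did not overlap between genotypes. The log2 ratio of Pcca to Pccb per kilobase was -0.73 to -0.54 in Ppara-flox PBS and -1.21 to -1.09 in PPARα-deficient LPS libraries, with the other two groups between -1.04 and -0.78.

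**Figure D4:**
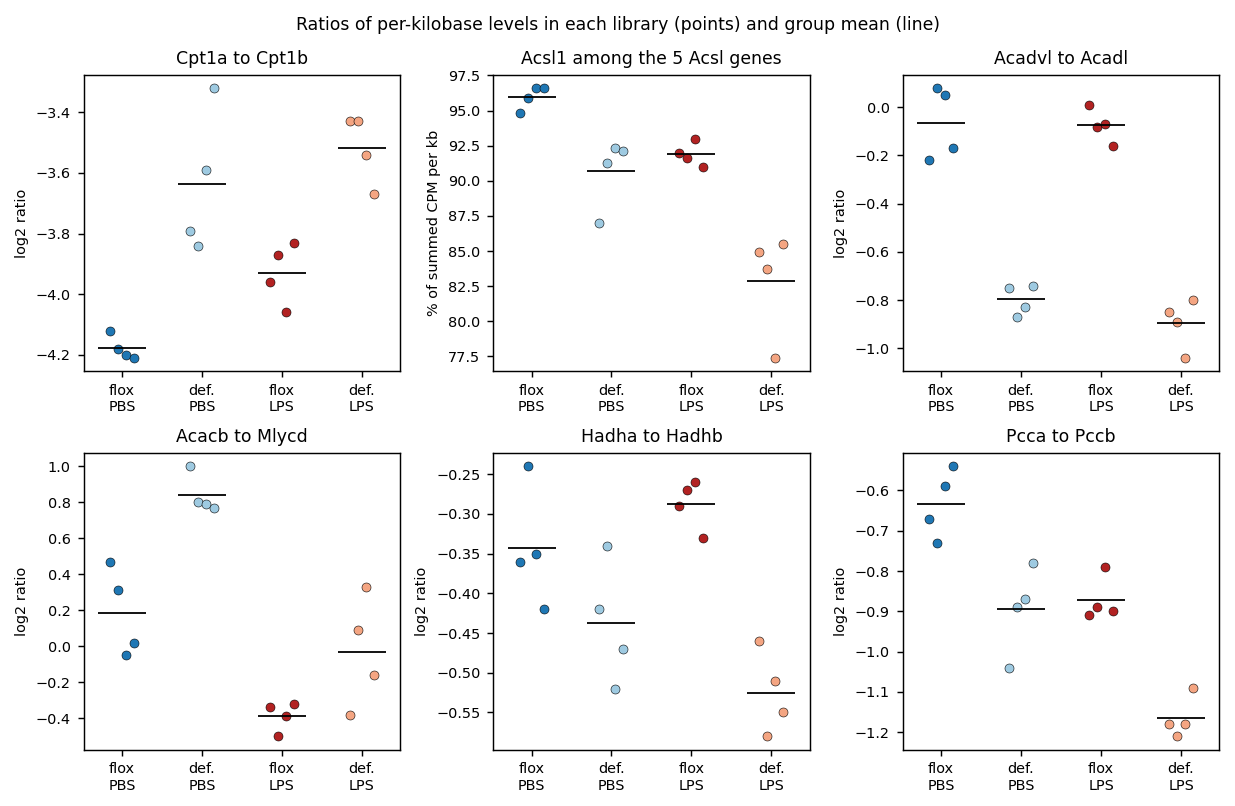
Ratios of per-kilobase levels in each of the 16 libraries (points) with the group mean (line), as log2 ratios or, for Acsl1, as percent of the 5 Acsl genes; axes do not start at 0. The Acadvl to Acadl ratio lies between -0.22 and 0.08 in Ppara-flox libraries and between -1.04 and -0.74 in PPARα-deficient ones.

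Put side by side, the 38 genes fall into a few patterns of calls. The 8 genes Acaa2, Acadl, Acads, Acadvl, Acsf2, Decr1, Hadhb and Mlycd were lower by genotype under both treatments and were not called with LPS in either genotype. For Hadhb this depends on the fit, as its fall with LPS in Ppara-flox hearts passed under several alternatives. In both genotypes LPS lowered 12 genes and raised 4 (Acsl4, Acsl5, Cpt2 and Eci2). Over all genes LPS lowered 19.1% and raised 20.2% in Ppara-flox hearts, and 18.3% and 19.4% in PPARα-deficient hearts. The share of all genes with each of these joint patterns was not counted, so the patterns only describe the 38 genes. Calls with LPS in Ppara-flox hearts alone were those of Acsl3, Acss1, Etfa and Etfb, and in PPARα-deficient hearts alone those of Acad10, Cpt1a, Hadha, Slc22a5 and Echdc2. For none of these did the interaction pass, so their LPS effects were not shown to differ between genotypes. The 5 genes Acad12, Acad9, Acsf3, Echs1 and Pccb were called in none of the comparisons by edgeR with TMM. With the fit restricted to the 8 libraries of a comparison, the genotype calls of Acad11, Acadl, Eci1 and Hadh after LPS and of Eci1 and Slc22a5 under PBS did not pass (adjusted p 0.0697 to 0.179), and Cpt1a passed by genotype after LPS (-0.39, adjusted p = 0.0464). The genotype and LPS comparisons share libraries.

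Of 60 further genes around the pathway 55 were tested. Under PBS 6 of them were lower in PPARα-deficient hearts, where 0.401% of all genes were lower, and after LPS 7, where 0.85% were. The others did not pass. Slc25a20, the carrier that exchanges acylcarnitine for carnitine between the steps of Cpt1b and Cpt2, was at 158 to 218 CPM in Ppara-flox PBS and 62.2 to 83.6 CPM in PPARα-deficient PBS hearts, and at 204 to 242 and 75.9 to 83.0 CPM after LPS. It was lower by 1.48 ± 0.11 SE on the log2 scale in both (edgeR adjusted p = 8.93e-07 and 6.48e-07), between the differences of Cpt1b and Acsf2. Ech1, an isomerase of dienoyl-CoA, fell in the same way (-1.45 ± 0.10 SE and -1.30 ± 0.10 SE), as did Acot2, a mitochondrial acyl-CoA thioesterase (-1.63 ± 0.14 SE and -1.73 ± 0.14 SE).

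With LPS 18 of the 55 fell and 7 rose in Ppara-flox hearts, and 20 fell and 5 rose in PPARα-deficient hearts. Over all genes 19.1% fell and 20.2% rose in the former and 18.3% fell and 19.4% rose in the latter. Regulators were among them. Ppargc1a, the coactivator PGC-1α, was at 321 to 508 CPM in Ppara-flox PBS and 18.6 to 36.6 CPM in Ppara-flox LPS hearts (-3.81 ± 0.38 SE, edgeR adjusted p = 7.83e-07), while PPARα-deficient hearts had 316 to 517 and 29.3 to 108 CPM (-2.79 ± 0.36 SE, adjusted p = 1.39e-05). Esrra, an estrogen-related receptor, fell by 1.23 ± 0.15 SE and 1.06 ± 0.15 SE on the log2 scale, and Esrrg, its relative, by 2.26 ± 0.19 SE and 2.17 ± 0.19 SE. Prkaa2, a catalytic subunit of the kinase AMPK that inhibits acetyl-CoA carboxylase, fell by 1.04 ± 0.11 SE and 1.43 ± 0.11 SE. These 4 regulators fell by more than most of the 38 enzymes and carriers, of which none fell with LPS by more than 0.60 in Ppara-flox or 1.14 in PPARα-deficient hearts. Esrrg and Prkaa2 were named for their small adjusted p, so the 4 do not stand for regulators in general. Of the 16 genes in their list, 9 fell and 2 rose in Ppara-flox hearts. In PPARα-deficient hearts 9 fell and 0 rose, and the others were not called. Ppara itself fell with LPS in Ppara-flox hearts (-2.15 ± 0.28 SE, adjusted p = 1.25e-05) and in those lacking PPARα (-0.87 ± 0.27 SE, adjusted p = 0.0188), and its genotype difference was -1.79 ± 0.28 SE under PBS (adjusted p = 0.00287) and -0.50 ± 0.27 SE after LPS (adjusted p = 0.651). The genotype difference of the 38 genes after LPS was thus measured between groups whose Ppara transcript levels overlapped at the time of sampling. Acaca, the other acetyl-CoA carboxylase, was at 7.76 to 11.7 CPM in Ppara-flox PBS and 17.9 to 20.8 CPM in Ppara-flox LPS hearts (0.92 ± 0.13 SE, adjusted p = 2.82e-05), opposite in sign to Acacb. In PPARα-deficient hearts the rise of Acaca did not pass (0.32 ± 0.13 SE, adjusted p = 0.0586).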

How the data were processed

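Heart RNA of 16 samples in 4 groups of 4 was analysed, grouped by the labels. The authors deposited 1 table per library with an estimated count (expected count) for every gene symbol, in whole numbers and without scaling. Libraries were made with a stranded kit, per the labels' protocols. GRCm38, StringTie 1.3.3b, HISAT, fastp 0.23.2 and DESeq2 1.30.1 are named, without roles, per the submitters' processing notes, and the annotation and strand setting of the counting are not given in the sources used here. Low values pile up at multiples of 4, so the effective depth may be 4 times smaller than the totals, and counts divided by 4 were an alternative. Of 55421 table lines 27 with symbols turned into dates were left out (0.0644% to 0.0861% of counts) and repeated symbols were summed.

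Genes kept by filterByExpr were fitted as 4 group means over 16 libraries (12 residual degrees of freedom) with edgeR 4.0.16 (glmQLFit, glmQLFTest, TMM) in R 4.3.3, with Benjamini-Hochberg adjustment over all genes; SEs follow from the F statistic (fold change over its square root). The interaction subtracts the LPS effect in Ppara-flox hearts from that in PPARα-deficient hearts. DESeq2 1.42.0 and limma 3.58.1 were alternatives, as were other scalings, filters and sample sets. Lengths, coordinates and gene models came from GENCODE vM21 (GRCm38), promoter sequences from RefSeq (GRCm38.p6), tables from Python 3.11.15. The model was tested on simulated data. Replicates of a group all differed beyond counting noise. The 38 genes, the other pathway genes and the cell type markers were chosen with earlier results of these data known. Named are all 38 genes, Slc25a20, Ppara, Ppargc1a, Esrra and Acaca, and up to 3 called pathway genes with the smallest adjusted p in each comparison; Esr1 was added after its values were seen. Protein sequences were not used here.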

Additional observations from a re-analysis of the deposited data

Results flagged for a closer look

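In each group of 4 libraries the highest and lowest value of each of the 38 genes was set against the other three by Dixon's ratio on log2 CPM (at its 95% critical value), and 13 of 152 groups had a library that stood apart, where chance gives about 1 in 20. In PPARα-deficient LPS hearts replicate 3 was low in Acsl1 (239 against 334 to 343 CPM) and in Slc22a5 (10.6 against 13.3 to 13.8 CPM), replicate 4 was low in Echs1 (250 against 279 to 283 CPM) and replicate 2 was low in Eci1 (112 against 134 to 139 CPM). In Ppara-flox LPS hearts replicate 3 was low in Acsl5 (33.1 against 37.9 to 38.3 CPM) and Acadm (725 against 777 to 781 CPM) and high in Cpt1b (587 against 507 to 514 CPM). Replicate 1 of that group was low in Cpt1a (48.9 against 52.7 to 53.6 CPM) and replicate 2 high in Acadl (918 against 858 to 862 CPM). In Ppara-flox PBS hearts replicate 1 was low in Hadh (455 against 540 to 555 CPM) and Acaa2 (560 against 718 to 738 CPM). In PPARα-deficient PBS hearts replicate 1 was low in Cpt1b (374 against 410 to 414 CPM) and replicate 4 high in Decr1 (141 against 119 to 122 CPM).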

How the results depend on the processing

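No call among the 38 genes changed sign under any alternative. At an adjusted p under 0.01 the genes lowered by LPS numbered 9 in Ppara-flox and 8 in PPARα-deficient hearts. Of all 18713 genes, 2557 and 2424 were lowered at that threshold. DESeq2 called 1 gene higher by genotype after LPS (Acsl6) and 1 lower in the interaction (Acacb). Leaving out both replicate 4 of Ppara-flox LPS and replicate 3 of PPARα-deficient LPS, an alternative chosen after seeing the data, likewise gave 1 and 1. Leaving out single libraries gave 16 to 19 lower and 0 higher by genotype under PBS, 18 to 22 lower and 0 to 1 higher by genotype after LPS (1 being Acsl6 without Ppara-flox LPS replicate 4, 0.62, adjusted p = 0.0471), 10 to 17 lower and 3 to 5 higher with LPS in Ppara-flox hearts, 11 to 18 lower and 4 to 5 higher with LPS in PPARα-deficient hearts, and 0 in either direction for the interaction. Replicate numbers did not pair the libraries (correlation of deviations -0.0658 to 0.0746 over 24 same-numbered pairs). With them as a block the genes lower were 17, 14, 15, 21 and 0, and those higher 0, 4, 5, 0 and 0 (genotype under PBS, LPS in Ppara-flox, LPS in PPARα-deficient, genotype after LPS, interaction). In the same order, 68, 3504, 3316, 142 and 0 of all 18713 genes were lower and 4, 3658, 3543, 45 and 0 higher. Over all genes DESeq2 called 135 lower and 48 higher by genotype under PBS (75 and 6 by edgeR), 244 and 200 after LPS (159 and 72), and 29 and 26 in the interaction; the cause was not tested. Upper-quartile factors gave 18 lower and 3 higher with LPS in Ppara-flox and 20 and 4 in PPARα-deficient hearts. All genes shifted too, with 4021 lower and 3345 higher in Ppara-flox hearts (3583 and 3771 with TMM). In PPARα-deficient hearts 3811 were lower and 3318 higher (3429 and 3632 with TMM). The 10 highest genes per kilobase were the same with either gene length and either scaling. With the longest coding transcript as gene length, 9 to 12 of the 38 levels moved by more than 1 SD in each group. Acadm then shifted by 3 ranks in Ppara-flox PBS hearts, so the order among the 7 highest genes there depends on the length used. A comparison of protein sequences was not run. With 4 libraries a group and SEs of 0.06 to 0.21 for single comparisons, small differences were not detectable.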
